A study of Mus musculus with 4 samples.

Results

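The transcripts of 10 genes of glycolysis and of the response to low oxygen were examined in mouse embryonic fibroblasts (MEFs) that lacked H3f3b and in wildtype (WT) MEFs. They were Slc2a1, Hk2, Aldoa, Tpi1, Pgk1, Pgam1, Ldha, Pdk1, Bnip3 and Vegfa, and every probe that the array annotation assigns to them was taken, which gave 14 of 25697 probes and 10 of 16593 genes. MEFs are connective tissue cells grown from the dissociated body of a midgestation embryo. The knockout (KO) group held 2 lines with both copies of H3f3b deleted (genotype H3f3b -/-), and the WT group held 2 lines with both copies intact (genotype H3f3b WT/WT), all labelled as C57BL6J and taken at embryonic day 12.5. The deletion was made in the female germ line by Zp3Cre acting on a floxed allele, so the KO embryos lacked the gene in every cell, and the embryos came from matings of heterozygous mice. All 4 lines were littermates and carried a stable pBabe puro vector, a retroviral vector for puromycin selection, so the WT lines had been transduced as well. Each line is 1 embryo's cells on 1 Illumina MouseRef-8 array, and H3f3a, the other gene for histone H3.3, was intact in all of them.

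Glycolysis splits glucose into pyruvate in the cytoplasm and yields ATP without oxygen. When oxygen is scarce, the hydroxylases that mark the transcription factor subunit HIF-1alpha for destruction slow down, the subunit accumulates, pairs with ARNT and binds a short core sequence, ACGTG or GCGTG, near its target genes. Those targets include glucose transporters, most glycolytic enzymes, the kinase that keeps pyruvate out of mitochondria, and the blood vessel growth factor VEGF-A. Cultured fibroblasts take up much glucose and release lactate even in air. The labels name no oxygen treatment, so the comparison asks how these transcripts stood in KO and WT lines under one culture condition.

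The core sequence itself was looked up in the promoters of the 10 genes, because it is the element these genes are known to share. In windows reaching from 250 bases before to 50 bases after each RefSeq start site on GRCm38.p6, 9 of the 10 genes held ACGTG or GCGTG on either strand, and 8 of 10 held ACGTG, which overlaps the palindrome CACGTG that other factors also bind. Among all 27025 genes with a window, 46.73% held either form and 21.78% held ACGTG. Pdk1 held GCGTG alone and Tpi1 held neither. A match is a description of the letters and was not tested as a binding site. The sites of 5 genes are shown: those of Hk2 and Pgk1, whose values were higher in KO, those of Slc2a1 and Ldha, whose values were lower, and that of Bnip3, which was not detected. Each is given 5′ to 3′ on the strand of the gene with 12 bases on each side of the central core, and capitals mark the cores, with CACGT and CACGC being ACGTG and GCGTG read on the other strand.
Hk2: agccacggaacaCACGTcccaactctggc
Pgk1: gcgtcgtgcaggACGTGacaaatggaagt
Slc2a1: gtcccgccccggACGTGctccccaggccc
Ldha: ggtgtcgcagcaCACGTGgagccactctt
Bnip3: gcgCACGCgccgCACGTGccaCACGCtcc
The Hk2 site lies at chr6:82774664-82774692 on the minus strand, 226 bases before the start. The Pgk1 site lies at chrX:106186938-106186966 on the plus strand, 150 bases before the start. The Slc2a1 site lies at chr4:119108697-119108725 on the plus strand, 36 bases before the start. The Ldha site lies at chr7:46845647-46845675 on the plus strand, 145 bases before the start, in a window with 7 core matches in all. In this count a CACGTG palindrome, as at the Ldha site, was counted separately on each strand. The Bnip3 site lies at chr7:138909598-138909626 on the minus strand, 108 bases before the start. The 5 sites were picked for display, and none of their genes passed the test between KO and WT described below. Whether the core went with the direction of a difference was not tested.

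The arrays detected 11202 to 11543 probes each at a detection p under 0.05, the p-value of a probe against the negative control probes of its array. The KO arrays were brighter, at a mean signal of 381 to 382 as opposed to 291 to 294 on the WT arrays, so the deposited signals below are given as a record and the normalized log2 levels carry the comparison. H3f3b, the check of the labels, was not detected in either KO line (signals 97.3 and 98.7) and had signals of 1736 and 1686 in WT, at least 69.5-fold lower in KO (limma adjusted p = 3.05e-05). WT replicate 2 stood apart from the other arrays, as 10 interferon response genes lay on average -0.47 and -1.11 log2 units from their mean over the 4 arrays in the KO lines, against 0.04 in the first WT line and 1.54 in the second. For 12 mitosis genes these values were -0.12 and -0.30 in the KO lines, against -0.13 in the first WT line and 0.55 in the second. Of 10 fibroblast markers on the array, 9 were detected on every array and Postn was not. Of 10 macrophage markers, 9 were also detected on every array, with summed normalized levels of 37896 and 29426 in KO lines against 25676 and 21796 in WT lines, and Ptprc, which marks all white blood cells, was not. None of 5 endothelial and 3 erythroid markers was detected on any array. The neural, skeletal muscle and adipocyte lists were each detected through 1 or 2 of 5 markers and were also higher in both KO lines. The sums below held 1 tested gene for neural, 1 for skeletal muscle and 2 for adipocyte markers, so they say little about a cell type. The summed normalized levels were 331 and 258 in the KO lines against 89.2 and 137 in the WT lines for neural markers, without Tubb3, Elavl3 and Gfap on any array. For skeletal muscle markers they were 275 and 261 in the KO lines against 147 and 196 in the WT lines, without Myod1, Myog, Actn2 and Ckm. For adipocyte markers they were 830 and 588 in the KO lines against 551 and 164 in the WT lines, without Adipoq, Fabp4 and Plin1. KO replicate 1 also differed from the other lines in Xist and Eif2s3y. It was the lowest array for Y-linked Kdm5d and Uty after normalization, with KO replicate 2 next. Kdm5d had signals of 101 and 108 in the KO lines, not called detected, against 98.7 and 99.4 in the WT lines, called detected. Its normalized levels were 4.38 and 4.65 in the KO lines against 5.04 and 4.89 log2 units in the WT lines. Uty was called detected on every array, with signals of 115 and 116 in the KO lines against 113 and 105 in the WT lines. On KO replicate 1 its detection p was 0.049, just under the limit. Its normalized levels were 4.79 and 4.93 in the KO lines against 5.62 and 5.18 log2 units in the WT lines. Xist, the RNA of the inactive X chromosome, had signals of 181 and 107 in the KO lines against 95.8 and 86.8 in the WT lines, and Y-linked Eif2s3y had 98.0, not called detected, and 244 in the KO lines against 165 and 135 in the WT lines. The interferon, macrophage, neural, skeletal muscle and adipocyte levels and the brightness of the arrays ran with genotype. The mitosis genes overlapped between genotypes by their mean deviations. By their summed levels both KO lines were lower, at 4228 and 3875 against 4448 and 6965 in the WT lines. The fibroblast markers overlapped by their summed levels. By their mean deviations both KO lines were lower, at -0.10 and -0.15 against 0.27 and -0.02 in the WT lines. Sex-linked expression was not balanced between genotypes, and the part of all these in the results below was not tested. In such bulk RNA, fewer cells of a type and less RNA per cell cannot be told apart.

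No glycolysis or hypoxia response gene among the 10 passed the test between KO and WT MEFs. Hk2, a hexokinase that phosphorylates glucose, was 1.32-fold higher in KO by its normalized level. Slc2a1, Tpi1 and Vegfa were 1.20-fold to 1.27-fold lower by their brightest probes. Pgk1 had higher values, but its only probe was so dim that neither WT array detected it. Of the 10 genes, 9 passed the filter (detection on at least 2 of the 4 arrays), Bnip3 being the exception. Of these 9, 0 passed the limma test at a Benjamini-Hochberg adjusted p under 0.05, against 0.0124% of the 8047 genes tested, which is H3f3b alone. At an unadjusted p under 0.05 stood 1 of the 9, Pgk1, against 8.13% of all genes tested. Among the 9, 2 had higher values in KO and 7 had lower ones, with a median difference of -0.13 log2 units, whereas over all genes tested 52.4% were higher, 47.6% were lower and the median was 0.01. Both KO arrays lay above both WT arrays for 2 genes (21% of all genes tested) and below them for 4 genes (17.1% of all genes tested). That was 6 of 9 in all against 38.2%, and for 3 genes the genotypes overlapped. Among the 2 above was Pgk1, which passed the filter only through its KO arrays, so its place there is no support for a difference. Its genotypes overlapped after a plain scaling of each array to the same mean. The 95% intervals of 8 of the 9 genes held 0, and those of 8 lay within 1 log2 unit either way, with the farthest bound at 0.83. With 2 arrays for each genotype, differences within these intervals could not be told from the spread between lines.

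**Figure D1:**
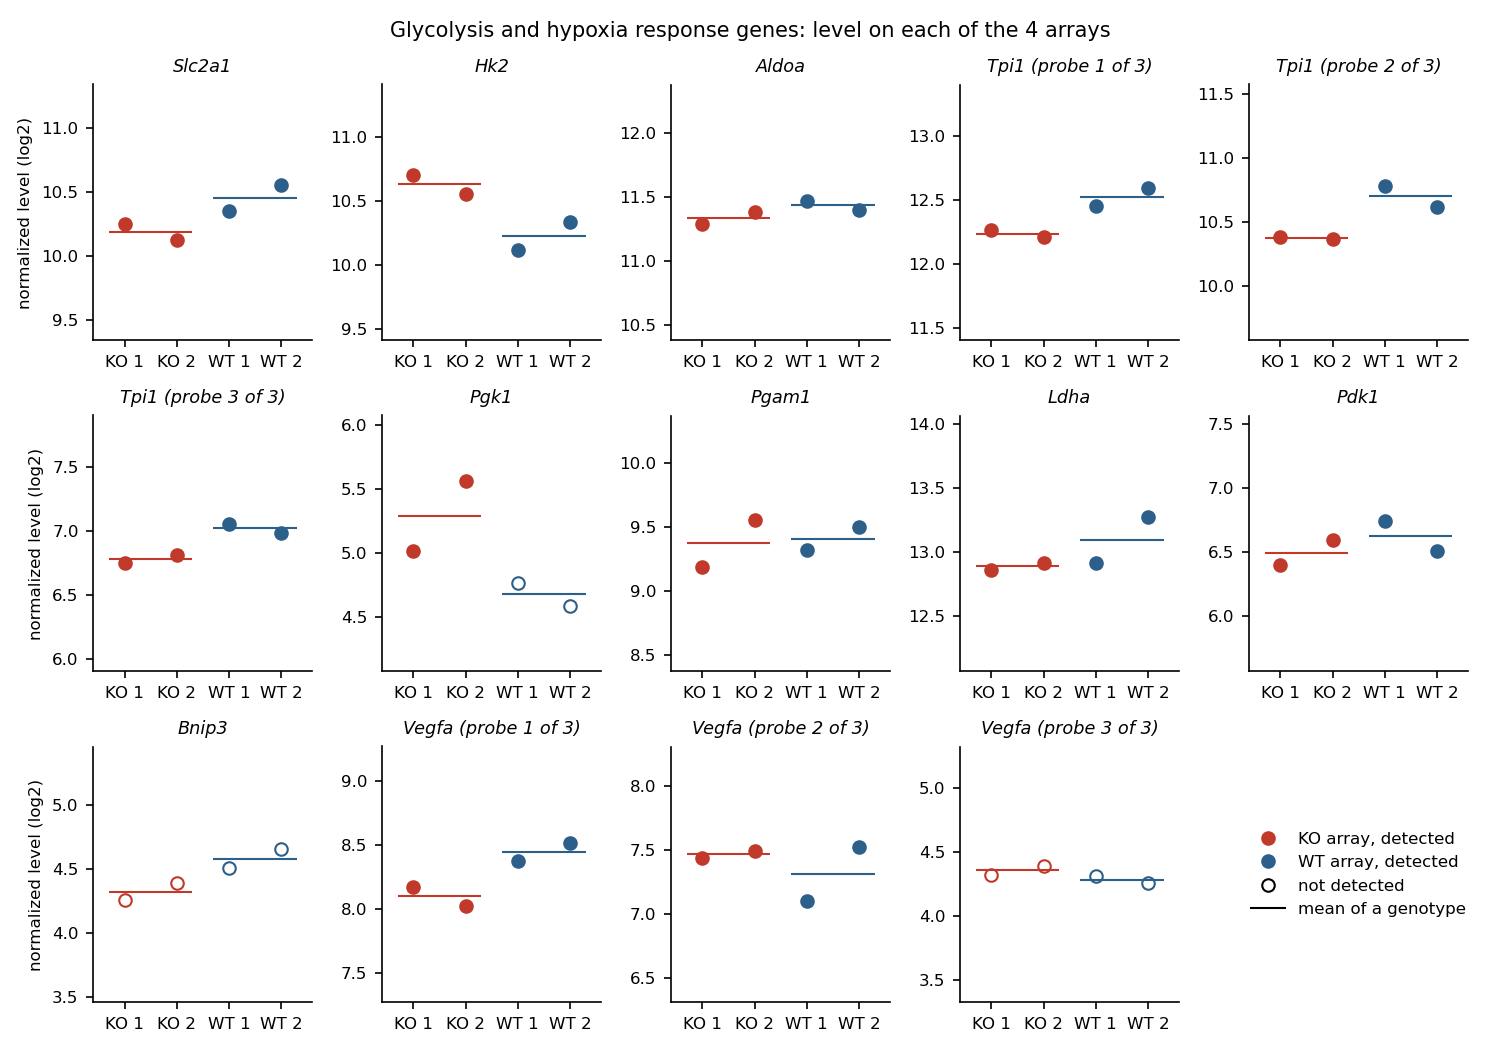
Normalized log2 level (vertical axis, each panel spanning the same number of log2 units) of every probe of the 10 genes on the KO arrays (red, left) and the WT arrays (blue, right), with a line at the mean of each genotype and open circles where the probe was not detected. Among probes detected on every array, both KO lines lie above both WT lines for Hk2. They lie below for Slc2a1, Aldoa, the 3 Tpi1 probes and the first Vegfa probe, and the others overlap. Pgk1, Bnip3 and the third Vegfa probe hold the undetected values.

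Glucose enters the cell through the transporter encoded by Slc2a1 (GLUT1), whose values were lower in KO. Its signals were 1492 and 1390 in KO against 1167 and 1344 in WT, and after normalization its levels were 10.25 and 10.13 in KO against 10.35 and 10.55 log2 units in WT. Both KO lines were below both WT lines, with WT replicate 2 the highest. The difference, KO minus WT, was -0.26 ± 0.18 log2 units (SE, n = 2 each), with a limma adjusted p of 0.801, and its 95% interval of -0.69 to 0.16 held 0. It was -0.16 without WT replicate 2 and -0.10 with median scaling.

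Hk2 encodes hexokinase 2, which phosphorylates the incoming glucose and sits on the outer mitochondrial membrane. Its signals were 1996 and 1840 in KO against 1005 and 1145 in WT, and its normalized levels were 10.70 and 10.56 in KO against 10.12 and 10.33 log2 units in WT. Both KO lines lay above both WT lines, and KO replicate 1 was the highest. The difference was 0.40 ± 0.18 log2 units (SE, n = 2 each; 95% interval -0.02 to 0.83; limma adjusted p = 0.646). Hk2 is the single member detected on all 4 arrays whose representative probe was higher in KO. Leaving out each array in turn gave 0.30 to 0.51. The unadjusted p, above 0.05 here, was under it in 8 of 13 alternatives, and it was not under it with the replicate block, with the mean over probes, or without KO replicate 1, KO replicate 2 or WT replicate 1 in turn. The adjusted p stayed above 0.05 in all 13.

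Aldolase A (Aldoa) splits the phosphorylated hexose into a pair of trioses. Its signals were 2934 and 3225 in KO against 2428 and 2346 in WT, and its normalized levels were 11.29 and 11.38 in KO against 11.46 and 11.40 log2 units in WT. The genotypes did not overlap, but the closest KO and WT lines were within 0.03 log2 units of each other. The difference of -0.10 ± 0.17 (SE, n = 2 each; limma adjusted p = 0.950) was smaller than its error, and it turned to 0.05 with median scaling.

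Triosephosphate isomerase (Tpi1) interconverts those trioses and was measured by 3 probes, all detected on every array. The brightest probe had KO signals of 5683 and 5542 against WT signals of 4796 and 5273, and normalized levels of 12.26 and 12.21 in KO lines against 12.46 and 12.60 log2 units in WT lines. The second probe had levels of 10.39 and 10.37 in KO lines against 10.79 and 10.62 in WT lines, and the dimmest had 6.75 and 6.81 in KO against 7.05 and 6.99 in WT. On every probe both KO lines lay below both WT lines, and the KO lines were within 0.06 log2 units of each other. The differences were -0.29 ± 0.17, -0.33 ± 0.17 and -0.24 ± 0.17 log2 units (SE, n = 2 each), with limma adjusted p-values of 0.765, 0.720 and 0.801. Probes of one gene share the same RNA and are not replicates of the genotype. With median scaling the 3 differences were -0.19, -0.17 and -0.02 log2 units, and their direction was kept in every alternative that was run.

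Phosphoglycerate kinase 1 (Pgk1) is the first enzyme of the pathway to make ATP and the only X-linked gene among the 10. Pgk1 was near the background of the arrays on its only probe, whose match to the expressed transcript was not checked. Its signals were 121 and 136 in KO, called detected, against 93.6 and 93.4 in WT, not called detected. The lowest signals called detected were 114.4 and 112.5 on the KO arrays against 94.5 and 98.3 on the WT arrays, so the probe stood just beyond the limit on KO replicate 1 and just under it on WT replicate 1. Normalized levels were 5.02 and 5.56 in KO against 4.77 and 4.59 log2 units in WT, and KO replicate 2 alone lay well above the rest. The fitted difference was 0.61 ± 0.23 log2 units (SE, n = 2 each; limma adjusted p = 0.576). Against the lowest detected level of the WT arrays Pgk1 was at least 1.38-fold higher in KO under the main settings, which is no lower bound under others. The gene passed the filter only through its KO arrays, which is where its values were high, so its place at an unadjusted p under 0.05 is no support for a difference. Without KO replicate 2 the difference was 0.34 and without WT replicate 2 it was 0.52. Without background correction it was 0.20 and with an offset of 50 it was 0.30, neither at an unadjusted limma p under 0.05. The 1.38-fold bound for Pgk1 was not met without KO replicate 2, without background correction or with that offset. After a plain scaling of each array to the same mean its values were 106.6 and 120.3 in KO against 108.5 and 106.9 in WT, where the genotypes overlapped and the difference was 0.07 log2 units. Without KO replicate 1, the line that differed from the others in Xist and Eif2s3y, the Pgk1 difference was 0.88.

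Phosphoglycerate mutase 1 (Pgam1), which moves the phosphate before the last energy-yielding step, did not separate the genotypes. Its signals were 761 and 954 in KO against 618 and 683 in WT, and its normalized levels were 9.19 and 9.55 in KO against 9.33 and 9.50 log2 units in WT. The KO lines held both the lowest and the highest value. The difference was -0.04 ± 0.20 log2 units (SE, n = 2 each; 95% interval -0.51 to 0.43; limma adjusted p = 0.983), and its sign changed in 4 alternatives.

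Ldha encodes the lactate dehydrogenase subunit that turns pyruvate into lactate and so restores the NAD+ that glycolysis uses. It was bright on every array, with KO signals of 8400 and 8892 against WT signals of 6789 and 8461. Normalized levels were 12.86 and 12.92 in KO against 12.92 and 13.28 log2 units in WT, and WT replicate 2 alone stood above the others. The difference was -0.21 ± 0.19 log2 units (SE, n = 2 each; limma adjusted p = 0.867), and without WT replicate 2, the array with the high interferon and mitosis genes, it was -0.03, whereas without WT replicate 1 it was -0.39.

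Pdk1 encodes the pyruvate dehydrogenase kinase that closes the way of pyruvate into the mitochondrial cycle and is a textbook HIF target. It was dim, with KO signals of 181 and 194 against WT signals of 160 and 151, but detected on all arrays. Normalized levels were 6.39 and 6.59 in KO against 6.74 and 6.50 log2 units in WT, and the genotypes overlapped. The difference was -0.13 ± 0.19 log2 units (SE, n = 2 each; limma adjusted p = 0.936), and it turned to 0.08 with median scaling. Without single arrays it lay between -0.24, without WT replicate 2, and -0.0095, without WT replicate 1, and without KO replicate 1 it was -0.03.

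Bnip3 encodes a mitochondrial outer membrane protein that promotes mitophagy in hypoxia. Bnip3 was not called detected on any array by its only probe, whose match to the expressed transcript was not checked. Its signals were 93.2 and 98.4 in KO against 87.7 and 94.8 in WT, in the range of undetected probes, whose median signals were 97.1 and 94.6 in KO against 80.9 and 84.4 in WT. No difference was fitted, and no direction can be read from values at background.

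Vegfa encodes the growth factor that drives blood vessel growth toward tissue short of oxygen. Its brightest probe had KO signals of 415 and 385 against WT signals of 350 and 377, and normalized levels of 8.17 and 8.02 in KO lines against 8.37 and 8.51 log2 units in WT lines. Both KO lines lay below both WT lines on it. The difference was -0.35 ± 0.17 log2 units (SE, n = 2 each; 95% interval -0.76 to 0.07; limma adjusted p = 0.702). A second probe, annotated to another Vegfa transcript record, gave levels of 7.44 and 7.49 in KO lines against 7.09 and 7.52 in WT lines, where WT replicate 1 alone was low. Its difference ran the other way, at 0.16 ± 0.20 (limma adjusted p = 0.920), and was -0.05 without WT replicate 1. The third probe was not detected on any array, with KO signals of 97.5 and 98.9 against WT signals of 80.8 and 81.0. The 2 detected probes thus disagreed in sign, and the mean over them was -0.09 log2 units.

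**Figure D2:**
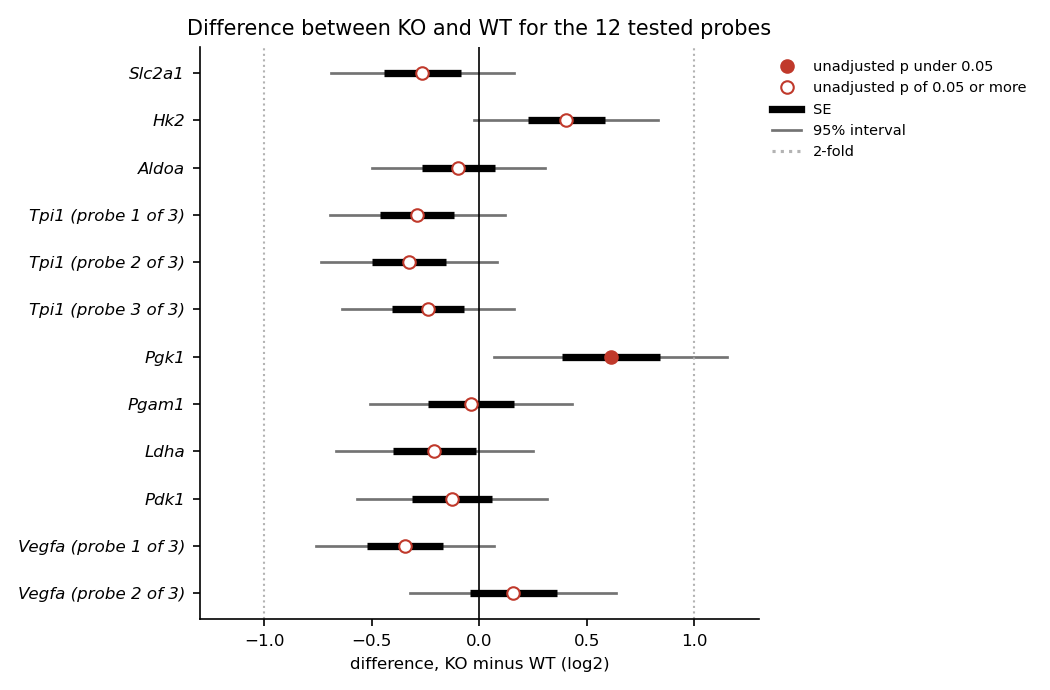
Difference between KO and WT in log2 units (horizontal axis, KO minus WT) for the 12 tested probes, with thick bars for the SE of the limma model, thin bars for the 95% interval and dotted lines at 2-fold (n = 2 arrays each). Only the interval of the dim Pgk1 probe does not hold 0, and it is also the only one to reach past 2-fold.

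The 9 genes also differed between lines of one genotype. WT replicate 2 was the highest array for 4 of them (Slc2a1, Tpi1, Ldha and Vegfa), against 29.0% of all genes tested, and KO replicate 1 was the lowest for 4 of them (Aldoa, Pgam1, Ldha and Pdk1), against 20.8%. KO replicate 2 was the lowest for Slc2a1, Tpi1 and Vegfa. The median deviation of the 9 genes from their own mean over the arrays was -0.10 in the first and -0.005 in the second KO line, against 0.03 in the first and 0.11 log2 units in the second WT line. The median difference of the 9 genes, -0.13 log2 units with all arrays, was -0.05 without KO replicate 1, -0.22 without KO replicate 2 and -0.13 without WT replicate 1 or without WT replicate 2, so its size rested on which KO line was kept. With median scaling it was 0.05.

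The count of genes on each side depended on how the arrays were brought to one scale. With median scaling the median of all genes tested moved to 0.19 log2 units and 77.8% of them were higher in KO, and 5 of the 9 genes were higher, against 2 of 9 with quantile normalization. Relative to that shifted median, 2 of the 9 were higher, Hk2 and Pgk1. On the table scaled by the authors 42.7% of all genes were higher and 3 of the 9 were, with the added one, Pgam1, at 0.0078. Relative to the all-gene median there, which was -0.03, 4 of the 9 were higher, Aldoa and Pgam1 joining Hk2 and Pgk1. Hk2 was higher and Slc2a1, Tpi1, Ldha and the brightest Vegfa probe were lower under all 5 ways of scaling.

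**Figure D3:**
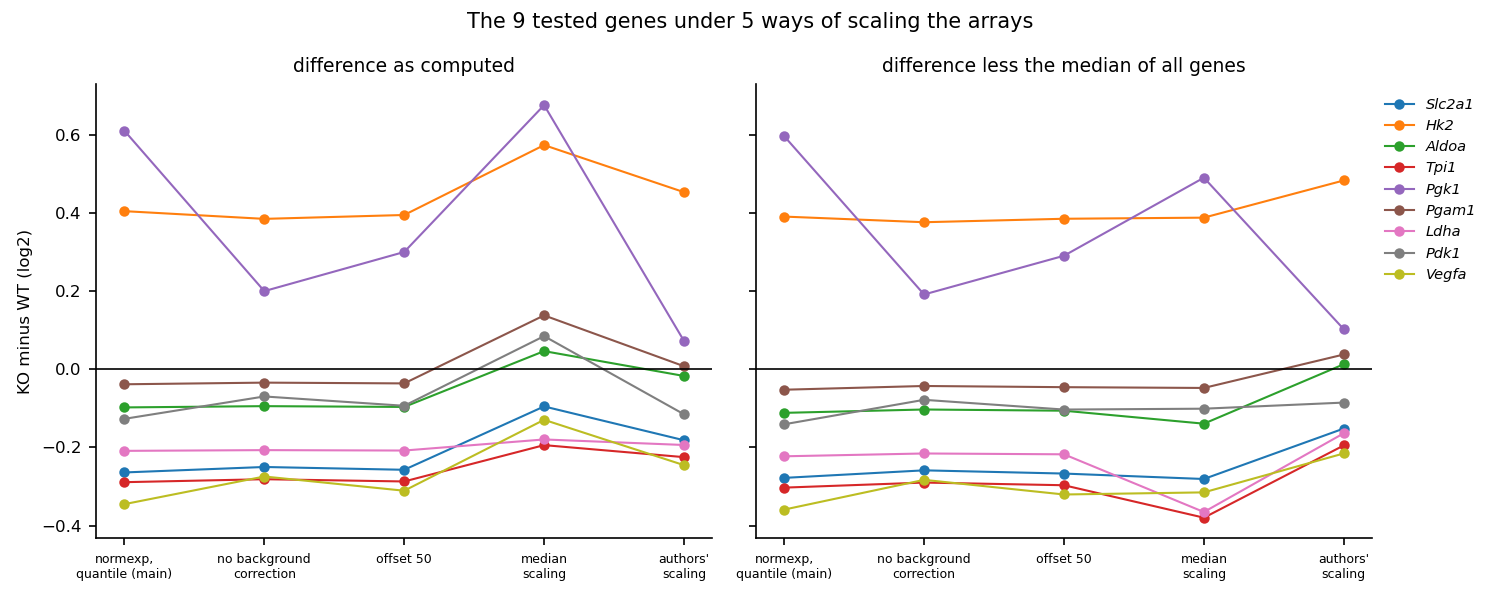
Difference between KO and WT in log2 units (vertical axis) of the 9 tested genes under 5 ways of scaling the arrays (horizontal axis), as computed on the left and less the median of all genes on the right, with lines joining the values of 1 gene. On the right Hk2 stays between 0.38 and 0.48, while Pgk1 is at 0.10 on the table scaled by the authors.

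Other enzymes, isoforms and transporters of glycolysis lay on both sides of 0. Of 23 such genes listed, 18 had a named probe and 11 were tested, 5 of them higher and 6 lower in KO, with a median difference of -0.02 log2 units, and 0 passed either the adjusted test or an unadjusted p under 0.05. With median scaling, which moved all genes upward, 11 of the 11 were higher. The smallest p belonged to Eno3, the muscle form of enolase, with KO signals of 330 and 385 against WT signals of 236 and 218 and a difference of 0.36 ± 0.19 log2 units (SE, n = 2 each; limma adjusted p = 0.720). Both KO lines were above both WT lines. Eno2, the neuronal enolase, differed by 0.17 ± 0.20, the phosphofructokinase gene Pfkp by -0.19 ± 0.23 and Pfkfb2, whose product makes the activator of phosphofructokinase, by 0.24 ± 0.30 log2 units, and for these 3 the genotypes overlapped.

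The genes that sense oxygen and form HIF also lay on both sides of 0. Of 12 listed, 11 had a named probe and 7 were tested, 4 higher and 3 lower in KO, with a median of 0.07 log2 units and 0 at an unadjusted p under 0.05. Hif1a, which encodes HIF-1alpha, had KO signals of 413 and 428 against WT signals of 338 and 375, and its normalized level differed by -0.21 ± 0.17 log2 units (SE, n = 2 each; limma adjusted p = 0.847). Its protein, which oxygen controls after translation, was not measured here. Hif3a, which encodes a HIF subunit that can oppose the others, differed by 0.39 ± 0.23, and of the prolyl hydroxylase genes that mark HIF for destruction, Egln3 differed by 0.32 ± 0.19 and Egln2 by -0.26 ± 0.23 log2 units.

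Further HIF targets held the genes with the smallest p-values, on both sides. Of 29 listed, 26 had a named probe and 23 were tested, 13 higher and 10 lower in KO, with a median of 0.06 log2 units. Car12 and Narf, counted among the higher ones, passed the filter only through their KO arrays. Together with the pathway genes, 17 of 30 were higher, and 21 of 30 with median scaling. At an unadjusted p under 0.05, 2 were higher (4.59% of all genes tested) and 3 were lower (3.54% of all genes tested), and 0 passed the adjusted test. Angptl4, a secreted inhibitor of lipoprotein lipase, had levels of 6.88 and 6.23 in KO lines against 7.31 and 7.66 log2 units in WT lines, a difference of -0.93 ± 0.26 (SE, n = 2 each; limma adjusted p = 0.543). Stc2, a secreted glycoprotein hormone, had levels of 6.60 and 5.90 in KO lines against 6.99 and 7.24 in WT lines, a difference of -0.87 ± 0.26 (limma adjusted p = 0.543). In both, the genotypes did not overlap and KO replicate 2 was the lowest, and without it the differences were -0.61 for Angptl4 and -0.52 for Stc2, no longer at an unadjusted p under 0.05. Without background correction they were -0.57 for Angptl4 and -0.48 for Stc2. Adm, which encodes the vessel-dilating peptide adrenomedullin, was near background, where KO signals were 125 and 127 and WT signals 117 and 129, and differed by -0.66 ± 0.18 after normalization (limma adjusted p = 0.543), by -0.25 without background correction, and by -0.61 without KO replicate 1, then not at an unadjusted p under 0.05.

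On the other side, Plod2, a collagen lysyl hydroxylase, had levels of 8.55 and 9.05 in KO lines against 8.32 and 8.16 log2 units in WT lines. The difference was 0.56 ± 0.22 (SE, n = 2 each; limma adjusted p = 0.589), and it was 0.31 without KO replicate 2, the highest of the arrays, and 0.48 without WT replicate 2, in both cases not at an unadjusted p under 0.05. Car12, a carbonic anhydrase of the cell surface, had signals of 134 and 122 in KO, called detected, against 90.4 and 90.9 in WT, not called detected. Under the main settings it was at least 1.38-fold higher in KO (limma adjusted p = 0.542). That bound does not hold without background correction, where the difference was 0.25 log2 units, or with an offset of 50, where it was 0.35. It does not hold after plain scaling to the same mean either, where the difference was 0.11. As for Pgk1, Car12 passed the filter only through its KO arrays, so its place at an unadjusted p under 0.05 is no support for a difference. Without KO replicate 1 the Car12 difference was 0.59, against 0.74 with all arrays, and not at an unadjusted p under 0.05. Targets of the same factor lay on both sides of 0, also with Car12 and Narf set aside.

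The pyruvate dehydrogenase complex and its regulators, on which Pdk1 acts, lay on both sides of 0. Of 12 genes listed, 10 had a named probe and 7 were tested, 3 higher and 4 lower in KO, with a median of -0.02 log2 units and 0 at an unadjusted p under 0.05. Pdha1, the X-linked catalytic subunit that PDK1 phosphorylates, had levels of 11.00 and 10.91 in KO lines against 10.87 and 10.73 in WT lines and differed by 0.15 ± 0.17 log2 units (SE, n = 2 each; limma adjusted p = 0.898). Dlat, the acetyltransferase core, differed by 0.19 ± 0.18, and the phosphatase genes that reverse the kinase, Pdp2 and Pdp1, by -0.30 ± 0.22 and -0.25 ± 0.32 log2 units.

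**Figure D4:**
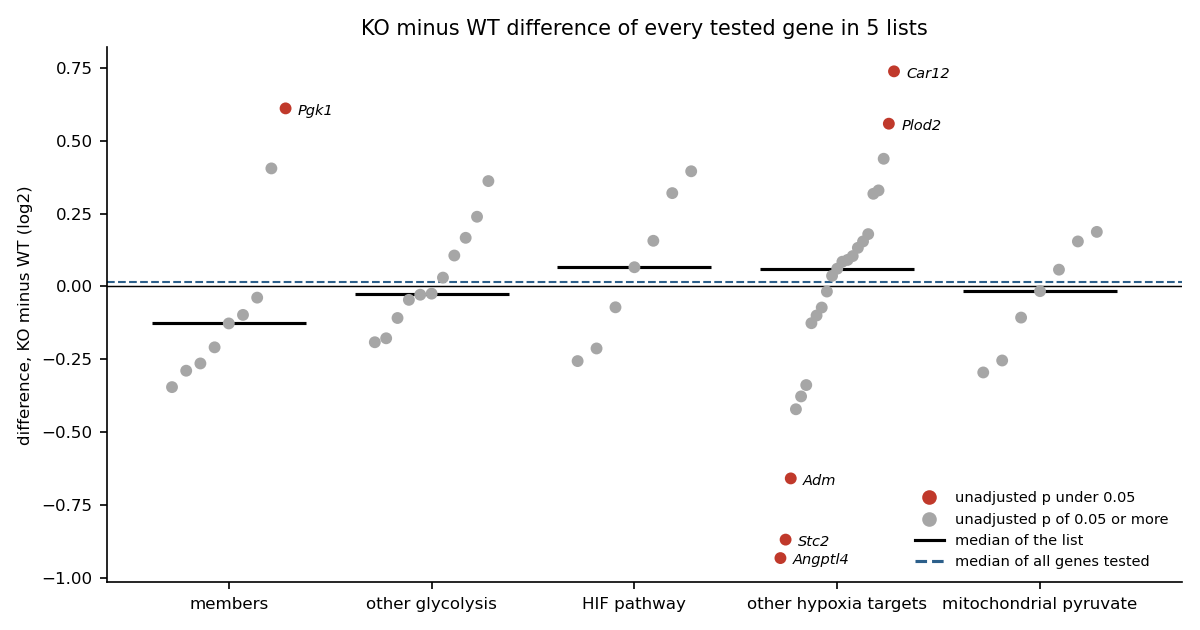
Difference between KO and WT in log2 units (vertical axis) of every tested gene, by list along the horizontal axis and sorted within each, with red for an unadjusted limma p under 0.05, black lines at the list medians and a dashed line at the median of all genes tested. The points of each list lie on both sides of 0, and the 5 red points of the other hypoxia targets split into 2 above and 3 below. The red points of Car12 and of the member Pgk1 belong to genes that passed the filter only through their KO arrays.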

How the data were processed

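Total RNA of 2 KO and 2 WT lines was hybridized to Illumina MouseRef-8 arrays. The authors summarised beads in GenomeStudio and deposited an intensity per probe with no background subtracted and no scaling, a detection p-value beside each, and a second table in which the authors had scaled each intensity so that all arrays had 1 mean. Per the annotation, 23978 of 25697 probes had 1 gene, 0 several and 1719 none. The members and gene lists were chosen with earlier results of these data known.

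The unscaled signals went through limma 3.58.1 under R 4.3.3 (neqc: normexp from detection p-values, offset 16, quantile normalization, log2). Probes detected at p under 0.05 on at least 2 of 4 arrays were tested (11552 probes, 8047 genes, 672 of the probes unnamed), and the tested probe with the highest mean stood for its gene. KO and WT were compared by two-sided lmFit and eBayes tests (degrees of freedom: 2 residual, 4.86 prior), with Benjamini-Hochberg adjustment over all tested probes. Differences are KO minus WT. If both arrays of a genotype were undetected, folds are lower bounds against the dimmest detected level under these settings. All members were named, and of 4 other lists those at an unadjusted p under 0.05 or else the 4 smallest. The scripts were checked on simulated data. Alternatives were no background correction (floor 16), offset 50, median scaling, the scaled table, no or a strict filter (p under 0.01 on all arrays), trend and robust variances, a replicate block, the mean over probes, and leaving out each array. Listed genes without a named probe were not analysed here. Promoter windows were read from RefSeq tables of GRCm38.p6. Array number limits precision.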

Additional observations from a re-analysis of the deposited data

How the results depend on the processing

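No member passed the adjusted test under any alternative run. At an unadjusted p under 0.05, the 1 member (Pgk1) became 3 without background correction, 2 with an offset of 50, with median scaling and with the scaled table, 4 without a detection filter and 3 with trend and robust variances, and leaving out each array gave 0 to 1. The members differed, as Pgk1 was not among those without background correction (Hk2, Tpi1 and Vegfa), with an offset of 50 or the scaled table (Hk2 and Vegfa in each), under the strict filter (Hk2) or without WT replicate 2 (Hk2). The members' median difference of -0.13 log2 units was 0.046 with median scaling and -0.219 to -0.054 with arrays left out. That of the other glycolysis genes (-0.02) was 0.136 with median scaling and -0.032 to 0.052 with arrays left out. That of the hypoxia pathway and targets together (0.06) was 0.036 without background correction, 0.037 over the mean of probes, 0.221 with median scaling, 0.0082 with the scaled table, 0.0095 with the strict filter and 0.019 to 0.066 with arrays left out. Median scaling itself moved all genes by 0.19. The sign reversed for Aldoa (0.046) and Pdk1 (0.085) with median scaling, for Pgam1 with median scaling (0.138), the scaled table (0.0078), without KO replicate 1 (0.142) and without WT replicate 2 (0.048), and for the second Vegfa probe without WT replicate 1 (-0.054, against 0.368 without WT replicate 2), and the cause was not tested. The other 209 values of single genes and probes kept their direction. Over all genes, 1 call at an adjusted p under 0.05 became 31 without WT replicate 1 and 20 with trend and robust variances, with 0 members among them.

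The line numbers do not pair the samples, since all were littermates, and same-numbered lines did not deviate together (correlation of deviations -0.04 over 11552 probes). With the replicate number as a block, 1 member stood at an unadjusted p under 0.05 and 0 passed the adjusted test.

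Arrays from 2 lines for each genotype limit what can be seen. Pgk1, Bnip3, Car12, Adm, Hif3a, Egln2 and Egln3 lay near background, where the deposited signals carry little of the transcript. A lone array left in a genotype was assumed to vary like the other genotype.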
